A study of Mus musculus with 7 samples.

Results

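Cytosolic ribosomal protein genes encode the proteins that join ribosomal RNA in the small (40S) and large (60S) subunits of the ribosome, which translates messenger RNA. Their mRNAs are among the most abundant of a mammalian cell. Most begin with a pyrimidine tract at the 5′ end (a TOP mRNA, for terminal oligopyrimidine), through which the kinase mTOR and the RNA-binding protein Larp1 control how strongly they are translated. Cells that grow and divide make ribosomes fast, and dividing thymocytes are one example, whereas heart muscle cells after birth rarely divide. The genes described here were chosen by name (Rpl or Rps followed by a number, the Rplp genes and Rpsa), leaving out S6 kinases and pseudogene names, with a completed comparison and a mean of at least 1 FPKM (a fragment count scaled for library size and transcript length, so that genes can be compared per length). Of 15965 genes with a completed comparison, 85 had such a name and 84 passed the minimum. They comprised 46 large subunit genes, 31 small subunit genes, 6 paralogues and Rps19bp1, which encodes a binding protein of Rps19 and not a ribosomal protein. The 77 genes of both subunits are called subunit genes below. Rps4y2 was set with the paralogues because RefSeq lists its accession as Rps4l, a transcribed pseudogene, and Rpl39l was the paralogue below the minimum.

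Sinoatrial node, the pacemaker region of the right atrium, was taken from Sv129 mice at 3 weeks after birth and its poly-A RNA was sequenced. The Cre library came from Baf250a f/f mice with Hcn4CreERT2 at 6 days after tamoxifen. The control library of the same day came from Baf250a f/f mice without Cre, so both groups carried the floxed allele of Baf250a (symbol Arid1a), which encodes a DNA-binding member of BAF chromatin remodellers. Hcn4CreERT2 places a tamoxifen-dependent Cre recombinase under the control of Hcn4, a gene of pacemaker cells, so most cell types of the dissected tissue are not its target. The labels do not say whether control mice received tamoxifen, how many mice made up a library, or of which sex they were. A separate time series (a control, 16, 20, 24 and 48 h) was not analysed here. Each genotype was represented by 1 library, so differences lack a replicate check and could not be tested.

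Several features of the libraries as a whole bear on the ribosomal protein genes. Arid1a had 12.3 FPKM in the Cre library and 34.9 FPKM in the control library. Pacemaker markers were low in both, at most 7.03 FPKM in the Cre library and 4.83 FPKM in the control library, with Hcn4 at 0.719 FPKM in the Cre library and 0.605 FPKM in the control library, so the labelled tissue is only weakly marked as node. All 19 T cell and thymus markers were at least 2-fold lower in the Cre library. The share over all genes averaging at least 1 FPKM was 10.4%. FPKM of these markers summed to 21.9 in the Cre library against 3704 in the control library. All 20 cell cycle markers were also at least 2-fold lower, with sums of 135 FPKM in the Cre library and 1227 FPKM in the control library. In the other direction, the Cre library exceeded the control 2-fold or more for 10 of 11 measured lung and airway markers and 8 of 13 cardiomyocyte markers. Of all genes 6.08% were at least 2-fold higher. Lung and airway markers summed to 18662 FPKM in the Cre library and 4201 FPKM in the control library, and cardiomyocyte markers to 25346 FPKM and 16390 FPKM in the same order. None of the measured markers was listed at 0, and the comparison of Nppa and Myh6 was not completed. The female transcript Xist had 93.2 FPKM in the Cre library and 0.379 FPKM in the control library, and the Y-linked Eif2s3y had 0.118 FPKM and 85.8 FPKM, so sex and genotype cannot be told apart.

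A set of start regions is shown for genes at both ends of the range described below. Rps27 and Rpl28 were among the lowest differences of their subunit, Rps26 was also low, Rps2 was the small subunit gene nearest to equal expression, and the muscle paralogue Rpl3l was higher in the Cre library. Each line gives, 5′ to 3′ from RefSeq (GRCm38.p6), the 70 bases before the annotated start and the first 20 bases after it, and capitals mark the longest run of C and T letters that overlaps the 10 bases before to 20 bases after the start. Rpl3l has 2 annotated starts.
Rps27 (chr3:90213629-90213718, minus strand): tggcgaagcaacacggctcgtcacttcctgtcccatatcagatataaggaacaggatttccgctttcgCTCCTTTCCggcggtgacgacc
Rpl28 (chr7:4792895-4792984, plus strand): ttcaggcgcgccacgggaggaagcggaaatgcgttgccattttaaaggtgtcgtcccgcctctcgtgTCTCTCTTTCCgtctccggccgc
Rps26 (chr10:128626487-128626576, minus strand): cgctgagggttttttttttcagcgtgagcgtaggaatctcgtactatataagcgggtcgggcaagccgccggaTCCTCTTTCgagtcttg
Rps2 (chr17:24719993-24720082, plus strand): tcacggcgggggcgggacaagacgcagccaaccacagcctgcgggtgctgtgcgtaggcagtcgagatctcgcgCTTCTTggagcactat
Rpl3l, start at the left (chr17:24727756-24727845, plus strand): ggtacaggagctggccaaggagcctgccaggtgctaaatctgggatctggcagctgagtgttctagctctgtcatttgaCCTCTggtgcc
Rpl3l, start at the right (chr17:24732615-24732704, plus strand): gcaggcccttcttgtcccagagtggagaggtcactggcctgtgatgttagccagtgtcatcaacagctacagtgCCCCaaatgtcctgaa

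The marked run was 9 bases long in Rps27, 11 in Rpl28, 9 in Rps26, 6 in Rps2 and 5 and 4 at the starts of Rpl3l. These genes were chosen by their ratios, so no relation of run length to ratio can be read from them. Start regions were found for 57 of the 77 subunit genes. A run of at least 8 C or T letters in that window stood in 29 of the 57 (50.9%), against 19.2% of 27025 genes with a start region. The letters CTTTCC on the gene's strand within 50 bases of the start, which can lie in the same run, stood in 18 of the 57 (31.6%), against 5.43% of all genes. Within 250 bases before to 50 after the start, on both strands, CCGGAA, the core that ETS-family factors bind, was found in 32 members (56.1%) and 16.7% of all genes. AAGATGG, which holds the core bound by YY1, was found in 9 members (15.8%) and 7.28% of all genes, and TATAAA in 6 members (10.5%) and 15.7% of all genes. In this paragraph all genes are the 27025 with a start region, not only those that reached 1 FPKM. The shares are therefore not matched for expression. Log2 ratios, Cre over control, of members with and without these letters are given as a description. Medians were -0.58 with the long run and -0.52 in the other 28 genes, and -0.60 with and -0.50 without CTTTCC. With and without CCGGAA they were -0.53 and -0.55, and with and without TATAAA -0.50 and -0.57. The widest gap was that of AAGATGG, with -0.71 in the 9 genes that hold it and -0.53 in the other 48.

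On the deposited scale every subunit gene was lower in the Cre library than in the control library, most of them by less than 2-fold, with Rps27 far lower and Rpl26 almost equal. On the log2 scale of FPKM + 1, Cre over control, all 77 lay below 0, against 54.0% of the 13408 genes that reached the minimum of 1 FPKM, and the median was -0.55 (quartiles -0.66 and -0.44) against -0.07 for all genes. Only Rps27 was at least 2-fold lower and none was at least 2-fold higher, where 10.4% of all genes were at least 2-fold lower and 6.08% at least 2-fold higher. At a smaller size, 68 of the 77 had at most 80% of the control value of FPKM + 1, against 34.8% of all genes. The log2 ratios of 66 members lay between -0.75 and -0.25, and their SD over the 77 genes was 0.28, against 0.94 over all genes. A smaller share of cells with high ribosomal protein mRNA and less of this mRNA per cell cannot be told apart in bulk tissue. Such a share may also differ with the tissue taken into each library, which was not tested. The T cell, thymus and cell cycle markers differed in the same direction and by far more, and their part in the result was not tested.

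The scale of the libraries sets how large this difference reads. With both libraries brought to the same upper quartile, the median log2 ratio of all genes was 0.13 and that of the subunit genes -0.33. Below 0 were then 73 of the 77, against 41.7% of all genes. Rpl21, Rpl26, Rpl36 and Rplp1 then lay at or just above equal expression, between 0.003 and 0.21. Relative to the median of all genes the subunit genes stood at -0.48 as deposited and -0.46 with that scaling. Over all genes the deposited scale gave 815 at least 2-fold higher and 1397 lower (36.8% of these higher), and the same upper quartile gave 1304 and 1086 (54.6% higher). Centring on the fibroblast, endothelial, adipocyte and epicardial markers moved the subunit median to -0.96. It placed 30 of the 77 genes at least 2-fold lower, against 21.8% of all genes. Over all genes 324 were then at least 2-fold higher and 2920 lower (9.99% of these higher).

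**Figure D1:**
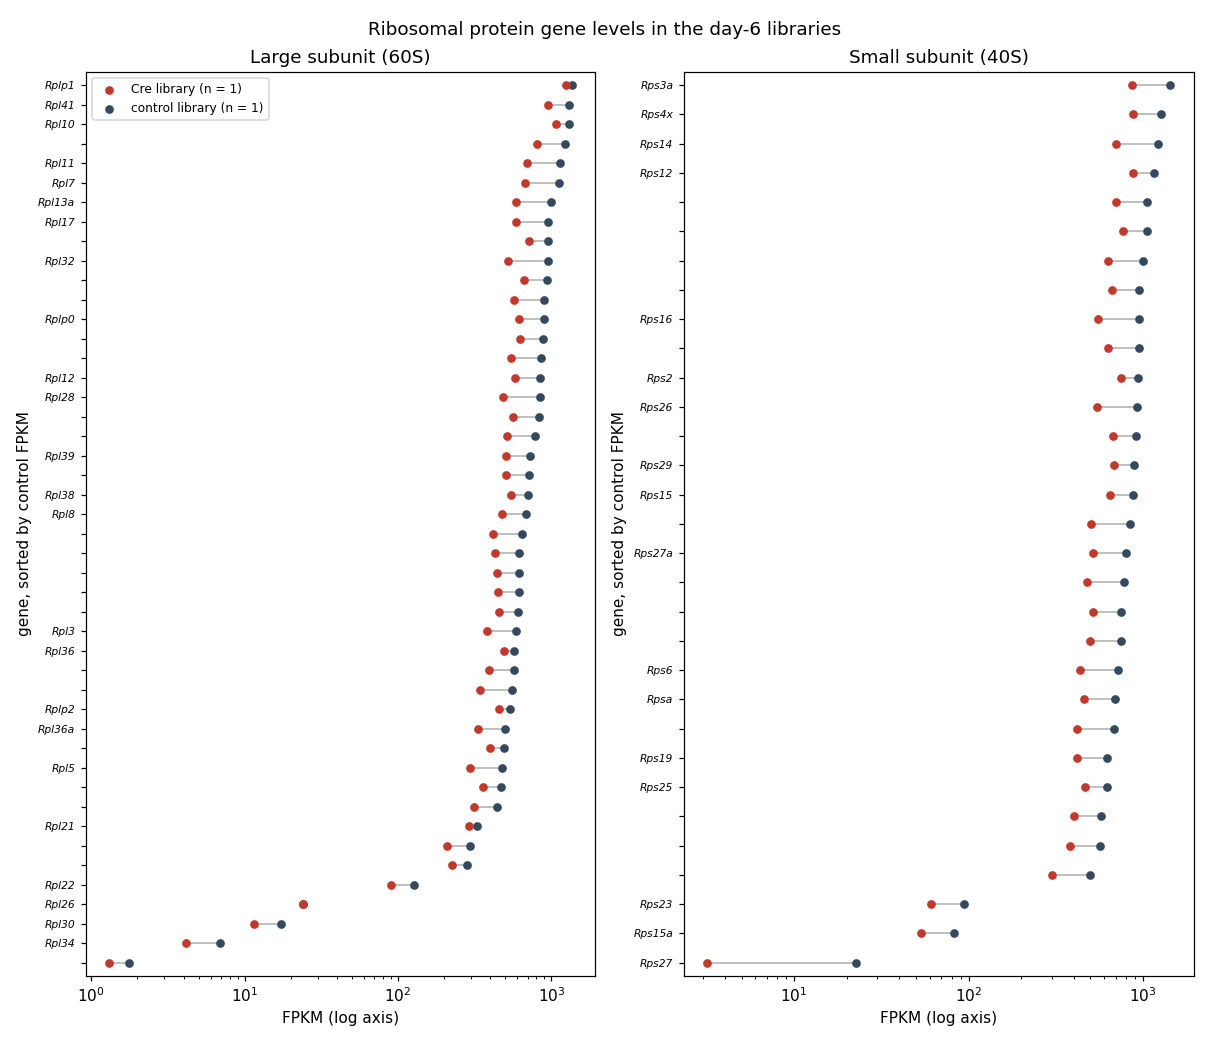
FPKM on a log axis of each large subunit gene (left) and small subunit gene (right) in the Cre library (red) and the control library (dark blue), sorted by control FPKM, with a grey line joining the 2 values of a gene and names for genes that the text names. The red point lies left of the dark one in all 77 genes, the points of Rpl26 all but coincide, and 7 genes lie below a mean of 100 FPKM.

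Subunit genes also stood lower in the ranking of all transcripts of the Cre library. They took 7.90% of summed FPKM in the Cre library and 11.2% in the control library. Large subunit genes made up 4.50% and 6.29%, and small subunit genes 3.40% and 4.96%, in that order of libraries. Of the 100 genes with the highest FPKM, 18 were subunit genes in the Cre library and 43 in the control library, and of the 200 highest, 55 in the Cre library and 66 in the control library. The median rank of the family was 143 in the Cre library and 92 in the control library, a change that does not depend on a common scaling factor, and 76 of the 77 genes held a lower place in the Cre library. At 1000 FPKM or more stood 2 subunit genes in the Cre library and 12 in the control library.

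Large subunit genes had a median of 483 FPKM in the Cre library and 664 FPKM in the control library, and a median log2 ratio of -0.51 (quartiles -0.62 and -0.41). Rpl32 was lowest, at 524 FPKM in the Cre library and 947 FPKM in the control library (log2 ratio -0.85). Rpl28, Rpl13a and Rpl7 followed with log2 ratios of -0.78, -0.75 and -0.74. Rpl13a is known in human monocytes for a role outside the ribosome, as part of a complex that silences inflammatory mRNAs. It had 588 FPKM in the Cre library and 991 FPKM in the control library.

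The acidic stalk of the large subunit, which recruits elongation factors, held both genes near to equal expression and genes at the family median. Rplp1, a stalk protein, had the highest level of the large subunit in both libraries, at 1242 FPKM in the Cre library and 1369 FPKM in the control library (log2 ratio -0.14). Its partner Rplp2 had 454 FPKM in the Cre library and 537 FPKM in the control library (log2 ratio -0.24). Rplp0, which anchors both to the ribosome, had 611 FPKM in the Cre library and 897 FPKM in the control library, and Rpl12, at the base of the stalk, had 577 and 847 FPKM in the same order. Rplp0 and Rpl12 both had a log2 ratio of -0.55, the family median, so the stalk was not uniform.

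Rpl5 and Rpl11 enter the large subunit together with 5S ribosomal RNA and, when free of ribosomes, bind Mdm2, the ubiquitin ligase of p53. Rpl5 had 293 FPKM in the Cre library and 473 FPKM in the control library, and Rpl11 had 698 FPKM in the Cre library and 1140 FPKM in the control library. Their log2 ratios were -0.69 and -0.71, close to each other and below the lower quartile of the large subunit. Around the peptidyl transferase centre, where peptide bonds form, Rpl3, Rpl8 and Rpl10 had log2 ratios of -0.63, -0.52 and -0.27. Rpl10, which joins late in assembly, was one of the most abundant, at 1077 FPKM in the Cre library and 1301 FPKM in the control library. The 9 genes of the lining and rim of the exit tunnel, through which the new chain leaves, had a median of -0.54, with Rpl17 lowest at -0.70 and Rpl26 highest at -0.01.

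Rpl26, Rpl21, Rplp1, Rpl36 and Rplp2 were nearest to equal expression in the large subunit. Rpl26 had 23.9 FPKM in the Cre library and 24.0 FPKM in the control library, far below most of the subunit. Rpl21 had 292 FPKM in the Cre library and 328 FPKM in the control library, and Rpl36 had 491 FPKM in the Cre library and 573 FPKM in the control library. Rpl38, which mice need for the translation of several Hox mRNAs in the embryo, had 546 FPKM in the Cre library and 701 FPKM in the control library (log2 ratio -0.36). Rpl41, the shortest ribosomal protein, had 951 FPKM in the Cre library and 1306 FPKM in the control library (log2 ratio -0.46).

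Small subunit genes had a median of 520 FPKM in the Cre library and 843 FPKM in the control library, and a median log2 ratio of -0.58 (quartiles -0.71 and -0.51). This median lay 0.07 below that of the large subunit, inside the quartiles of the large subunit, and the large subunit median lay just above the upper quartile of the small subunit. Rps14 had 701 FPKM in the Cre library and 1217 FPKM in the control library (log2 ratio -0.80); in humans its loss underlies the anaemia of the 5q- syndrome. Rps16 and Rps26 had log2 ratios of -0.77 and -0.75. Rps3a, the most abundant small subunit gene of the control library, had 871 FPKM in the Cre library and 1435 FPKM in the control library (log2 ratio -0.72).

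Within the small subunit the head, which carries the path of tRNAs, and the body and platform, which hold the decoding site and the mRNA exit, had similar medians. The 14 head genes had a median of -0.56 and the 17 genes of the body and platform -0.62. Rps6, the substrate after which the S6 kinases are named, had 436 FPKM in the Cre library and 716 FPKM in the control library (log2 ratio -0.72). Rps19, the gene most often altered in the human anaemia named after Diamond and Blackfan, had 416 FPKM in the Cre library and 622 FPKM in the control library (log2 ratio -0.58). Rpsa, also known as a laminin receptor precursor, had 462 FPKM in the Cre library and 688 FPKM in the control library (log2 ratio -0.57). Rps27a, made as a fusion with ubiquitin, had 516 FPKM in the Cre library and 797 FPKM in the control library. The small subunit genes nearest to equal expression were Rps2, Rps29, Rps12, Rps25 and Rps15, with log2 ratios of -0.32, -0.37, -0.39, -0.41 and -0.43. Rps2, at the mRNA entry channel, had 748 FPKM in the Cre library and 934 FPKM in the control library.

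The subunit genes on the X chromosome lay within the range of the family, while the libraries differ in Xist. Rps4x had 881 FPKM in the Cre library and 1276 FPKM in the control library (log2 ratio -0.53). Rpl36a had 330 FPKM in the Cre library and 495 FPKM in the control library, and Rpl39, in the wall of the exit tunnel, had 509 and 721 FPKM in that order. With Rpl10, described above, the 4 X-linked genes had a median log2 ratio of -0.52 and a range of -0.58 to -0.27.

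Most but not all subunit genes had levels per length close to each other. The 70 genes averaging 100 FPKM or more ranged from 89.8 to 1242 FPKM in the Cre library and from 127 to 1435 FPKM in the control library, with an SD of log2(FPKM + 1) of 0.57 and 0.59. Their order was nearly the same in both libraries, with a Pearson correlation of 0.964 across these genes, which share both libraries and are not replicates. The files list the other 7 genes far lower, among them Rpl34, Rpl30, Rpl26, Rps27, Rps15a and Rps23. Rpl34 had 4.14 FPKM in the Cre library and 6.91 FPKM in the control library, and Rpl30 had 11.6 and 17.3 FPKM in that order. Rps15a had 53.6 FPKM in the Cre library and 82.8 FPKM in the control library, and Rps23 had 60.9 and 94.7 FPKM.

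Processed copies of these genes are many, and the authors' handling of reads that match several places is not given in the sources used here. In GENCODE M21, 41 of the 77 genes had at least 50% of the 50-base stretches of their transcript in a transcript of another gene, and the median was 50.8%. For the low-listed genes that median was 48.4% and for the 70 others 51.9%, a small gap. Each share was taken over the longest matching transcript, so a long isoform lowers it. Rps15a had 6.28% over 5179 bases and Rps20 had 7.44% over 3706 bases. The shares therefore do not show how reads of these genes were placed. The deposited table also lists Rpl34-ps1, left out by its name, at the locus of Rpl34, with 515 FPKM in the Cre library and 767 FPKM in the control library (log2 ratio -0.58). Rps27 had 3.18 FPKM in the Cre library and 22.6 FPKM in the control library (log2 ratio -2.50). Of its stretches 98.6% also stand in other genes, so its value, which is the only one past 2-fold, is uncertain. Without the 41 genes the remaining 36, which by this measure include Rps15a and Rps20, were all below 0. Their largest absolute log2 ratio was that of Rpl32. Rpl32 and 12 other subunit genes also lie in a locus that overlaps another row of the table.

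**Figure D2:**
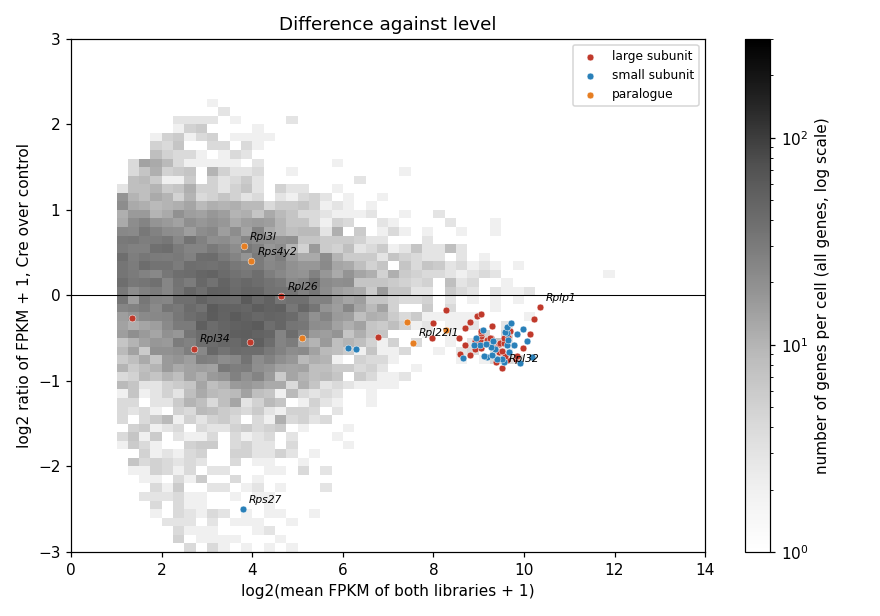
Log2 ratio of FPKM + 1, Cre over control, against log2 of the mean FPKM of both libraries + 1, with all genes as grey density and large subunit (red), small subunit (blue) and paralogue genes (orange) as points. Most subunit genes form one cluster at the high end between -0.85 and -0.14, with Rps27 far below it at -2.50 and Rpl3l and Rps4y2 above 0. Genes with an absolute ratio above 3 are not shown.

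Abundant genes and short transcripts as such had medians near that of all genes. Of 739 genes averaging 100 FPKM or more, 45.9% lay below 0, with a median of 0.05, and the 669 that are no subunit gene had a median of 0.10, against -0.55 for the 70 subunit genes at that level. Subunit transcripts had a median length of 830 bases, against 2851 for all genes, and of 939 genes with a transcript of at most 1000 bases 57.4% lay below 0, with a median of -0.08. Across the 77 genes the log2 ratio had a Spearman correlation of -0.09 with the mean level and of -0.13 with transcript length, given as a description. Between the start and end of 30 subunit genes lie small nucleolar RNA genes in the RefSeq table, which guide the modification of ribosomal RNA. Their strand and their place in introns were not checked. These 30 subunit genes stood at a median log2 ratio of -0.56, and the other 47 at -0.54.

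Paralogues of ribosomal protein genes, some of which replace the common protein in a particular tissue, did not all follow the family. Rpl3l, which in mice takes the place of Rpl3 in heart and skeletal muscle, was higher, at 15.8 FPKM in the Cre library and 10.3 FPKM in the control library (log2 ratio 0.57), which is below 2-fold. Its level was 4.13% of that of Rpl3 in the Cre library and 1.74% in the control library. No 50-base stretch of Rpl3l stands in another gene as an exact match. The authors' handling of reads is not given, so the separation of Rpl3l reads from those of Rpl3 was not tested. All 13 measured cardiomyocyte markers also lay above 0, with a median of 1.17, and their part in the Rpl3l value was not tested. Medians were above 0 too for fibroblast (0.42), endothelial (0.41), adipocyte (0.51), epicardial (0.21), pacemaker (0.35) and lung and airway markers (2.29). Of these, 1 of 9 fibroblast and 2 of 7 epicardial markers lay below 0, as did all T cell, thymus and cell cycle markers. Rps4y2 had 17.0 FPKM in the Cre library and 12.6 FPKM in the control library (log2 ratio 0.40), at a locus that overlaps other rows.

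The other paralogues lay on the side of the family. Rpl22l1 had 151 FPKM in the Cre library and 221 FPKM in the control library (log2 ratio -0.55). Its parent Rpl22, which mouse alpha-beta T cells need to develop, had 89.8 FPKM in the Cre library and 127 FPKM in the control library (log2 ratio -0.49), so the paralogue was above its parent in both. It stood at 168% of Rpl22 in the Cre library and 175% in the control library. Rpl36al, a paralogue of Rpl36a, had 268 FPKM in the Cre library and 356 FPKM in the control library, or 81.0% and 71.8% of Rpl36a. Rps27l, a p53 target, had 151 FPKM in the Cre library and 187 FPKM in the control library (log2 ratio -0.31). Rpl7l1 had 27.5 FPKM in the Cre library and 39.2 FPKM in the control library, 4.08% and 3.49% of Rpl7. Rpl39l, a gene of male germ cells, was below the minimum at 0.408 FPKM in the Cre library and 0.382 FPKM in the control library, and Rpl34 and Rps27 were among the members nearest above the minimum. Rps19bp1 had 11.4 FPKM in the Cre library and 16.8 FPKM in the control library (log2 ratio -0.52).

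**Figure D3:**
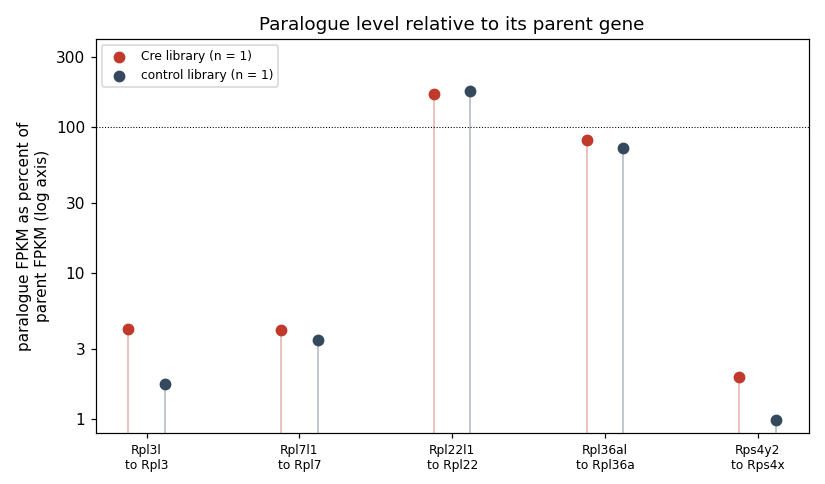
FPKM of 5 paralogues as a percent of the FPKM of the parent gene, on a log axis, in the Cre library (red) and the control library (dark blue), with a dotted line where both are equal. Rpl22l1 lies above the line in both libraries (168% and 175%), and Rpl3l is at 4.13% of Rpl3 in the Cre library against 1.74% in the control library. At least 50% of the 50-base stretches of Rpl22l1, Rpl36al, Rpl3, Rpl7, Rpl36a and Rps4x stand in other genes. Percentages that rest on these genes are uncertain.

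Ribosomal proteins that carry other names were lower as well. Fau, whose product is cut to give a small subunit protein, had 510 FPKM in the Cre library and 847 FPKM in the control library (log2 ratio -0.73). Gnb2l1, also called Rack1, a scaffold on the head of the small subunit, had 389 FPKM in the Cre library and 607 FPKM in the control library (log2 ratio -0.64). The wider list of TOP mRNAs outside the name pattern, which includes these genes, had 19 of 20 members below 0, 1 at least 2-fold lower and none higher, against 54.0%, 10.4% and 6.08% of all genes. Its median of -0.61 became -0.39 with the same upper quartile and -1.02 with the centring. Npm1, a nucleolar chaperone, was the one past 2-fold, at 196 FPKM in the Cre library and 393 FPKM in the control library. Eef1a1, the elongation factor that delivers tRNAs, had 2539 FPKM in the Cre library and 3332 FPKM in the control library. Vim, the intermediate filament of mesenchymal cells, was the member above 0, at 600.2 FPKM in the Cre library and 522 FPKM in the control library.

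Most factors that run translation were lower on the deposited scale, by less than the subunit genes at the median. Of 36 initiation factors 34 lay below 0, against 54.0% of all genes, and 1 was at least 2-fold lower, against 10.4% of all genes. Their median of -0.39 became -0.17 with the same upper quartile and -0.80 with the marker centring. At the same upper quartile 28 lay below 0, against 41.7% of all genes. Eif1b had 28.6 FPKM in the Cre library and 60.4 FPKM in the control library (log2 ratio -1.05). Pabpc1, the poly-A binding protein, had 78.8 FPKM in the Cre library and 143 FPKM in the control library, and Eif4a1, the helicase, had 201 and 336 FPKM in that order. Of 13 genes listed for elongation and termination 12 lay below 0 and none was past 2-fold, against the same shares of all genes. The member above 0 was Eef2k (log2 ratio 0.31), the kinase of Eef2 and not itself such a factor. The median of the 13 genes, -0.32, became -0.10 with the same upper quartile and -0.73 with the centring. At the same upper quartile 11 lay below 0, against 41.7% of all genes. Eef2, which moves the ribosome along the mRNA, had 429 FPKM in the Cre library and 617 FPKM in the control library.

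Most genes that build ribosomes also lay below 0 on the deposited scale, though few were past 2-fold. Of 55 measured assembly and nucleolar genes 52 lay below 0, against 54.0% of all genes. At least 2-fold lower were 6 of them (10.9%), near the 10.4% of all genes, and none was higher. Their median of -0.40 (SD 0.45) became -0.19 with the same upper quartile and -0.81 with the centring. At the same upper quartile 43 lay below 0, against 41.7% of all genes. Tcof1, a nucleolar factor needed for ribosomal DNA transcription, had 3.63 FPKM in the Cre library and 19.3 FPKM in the control library (log2 ratio -2.13). Wdr12, Emg1 and Nop56, which act in the maturation of ribosomal RNA, had log2 ratios of -1.56, -1.41 and -1.39. Of 14 RNA polymerase I genes 12 lay below 0, against 54.0% of all genes. At least 2-fold lower was 1 of them (7.14%), against 10.4% of all genes. Their median of -0.60 became -0.40 with the same upper quartile and -1.01 with the centring. At the same upper quartile 9 lay below 0, against 41.7% of all genes. The gene past 2-fold was Taf1c, a subunit of the promoter selectivity factor, at 2.81 FPKM in the Cre library and 11.4 FPKM in the control library. Polr1a, the largest subunit of the polymerase, lay above 0, at 6.54 FPKM in the Cre library and 5.06 FPKM in the control library.

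Regulators of ribosomal protein synthesis were mixed. In the list of mTOR, S6 kinase and Myc genes 13 of 22 (59.1%) lay below 0 and 2 (9.09%) were at least 2-fold lower, both near the shares of all genes (54.0% and 10.4%), and none was higher. Their median of -0.13 became 0.07 with the same upper quartile and -0.54 with the centring. Myc, which drives ribosome production, had 3.92 FPKM in the Cre library and 10.1 FPKM in the control library (log2 ratio -1.17). Rictor, of the second mTOR complex, had 8.37 FPKM in the Cre library and 18.6 FPKM in the control library, and the S6 kinase Rps6kb1 had 11.5 and 23.0 FPKM in that order. Mtor itself had 10.2 FPKM in the Cre library and 9.56 FPKM in the control library. Among genes that respond to free ribosomal proteins, Trp53 had 16.5 FPKM in the Cre library and 35.3 FPKM in the control library, Mdm2 had 24.3 and 37.3 FPKM, and the p53 target Cdkn1a had 31.5 and 16.8 FPKM, in that order of libraries.

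**Figure D4:**
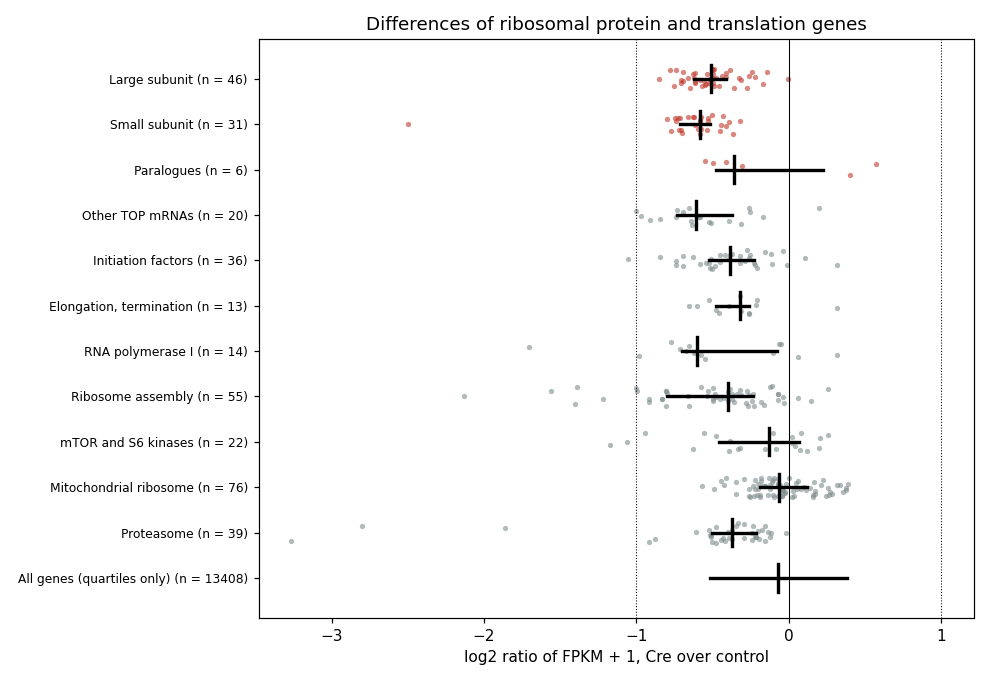
Log2 ratio of FPKM + 1, Cre over control, of every measured gene (points, spread vertically at random) in the ribosomal protein groups (red) and in related lists (grey), with the median (upright bar) and quartiles (horizontal bar) and dotted lines at 2-fold. The subunit genes cluster around medians of -0.51 and -0.58, whereas mitochondrial ribosomal proteins lie around -0.06 on this deposited scale.

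The ribosome of mitochondria, built from its own nuclear-encoded proteins, stood close to the median of all genes. Of 76 mitochondrial ribosomal protein genes 48 (63.2%) lay below 0 and 28 above, against 54.0% of all genes below 0. None was past 2-fold, against 10.4% of all genes lower and 6.08% higher. The median was -0.06 (quartiles -0.19 and 0.12), beside -0.07 for all genes. With the same upper quartile their median was 0.16, beside 0.13 for all genes, and with the centring -0.47, beside -0.48. They summed to 3886 FPKM in the Cre library and 4052 FPKM in the control library. The subunit median of the cytosolic ribosome lay 0.49 below the mitochondrial one, and it did so with the same upper quartile and after the marker centring too, since a common scaling factor nearly cancels. Genes named after the proteasome, another large and abundant complex, had a median between those of both ribosomes, at -0.37. Below 0 were 39 of 39, against 54.0% of all genes. At least 2-fold lower were 3 (7.69%), against 10.4% of all genes. This name pattern also takes in Psmc3ip, a recombination factor and not a subunit, and without it 38 of 38 lay below 0 with a median of -0.36. With the same upper quartile the median of the 39 was -0.15, and with the centring it was -0.78. At the same upper quartile 28 lay below 0, against 41.7% of all genes. The authors' deposited table calls 0.671% of all genes and no gene of the name pattern, and it gives these genes a smallest p-value of 0.307 and q-values of 0.999. Those values compare the Cre with the control library and rest on 1 library per genotype.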

How the data were processed

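The submitters' processing notes name TopHat, Bowtie, Cufflinks and the mm9 genome. Versions, annotation, strand setting, scaling and the treatment of multiply mapped reads: not given in the sources used here. A deposited table lists 15967 genes with 1 FPKM value per library, a unit read from its Cufflinks column layout per the file headers. It also holds, from the authors, a log2 fold change, a test score, a p-value and a q-value per gene. This log2 value equals log2(Cre/control) to within 1.38e-05. Read depth is unknown, so no counting interval is given.

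From these, log2 ratios of FPKM + 1 were computed for genes of completed status averaging 1 FPKM or more (without 11 small-RNA genes) and counted at 2-fold (Python 3.11.15, pandas 2.3.3, scipy 1.17.1, matplotlib 3.10.9). A pseudocount of 1 understates differences of weak genes. The 2 genes with status HIDATA were treated as missing. Shared sequence (stretches of 50 bases, same strand) was read from each gene's longest matching GENCODE M21 transcript against transcripts of other genes. Transcript lengths were those of the longest matching GENCODE transcript. Start regions and names came from RefSeq GRCm38.p6, matched by accession for all 77 subunit genes and used only within that build.

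The members and lists were chosen with earlier results of these data known. Genes named were, per subunit, the 5 lowest and 5 highest ratios and the 3 highest and lowest levels, all paralogues, members with the roles described, and up to 4 genes with the largest absolute ratio per list; others, among them Vim, Eef1a1, Mtor and Polr1a, were chosen after their values were seen. Some genes that this rule names are not reported here. Alternatives were pseudocounts, minimum levels, scalings, status, transcript length, shared loci and, added after seeing the data, sets of members. With 1 library per genotype there was no test.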

Additional observations from a re-analysis of the deposited data

How the results depend on the processing

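All 77 subunit genes stayed below equal expression in every setting that kept all of them except the same upper quartile (73) and scaling to a sum of 1000000 (76, with Rpl26 above). The medians of large, small and all subunit genes became -0.28, -0.36 and -0.33 with the same upper quartile and -0.92, -0.99 and -0.96 with centring on the fibroblast, endothelial, adipocyte and epicardial markers, which also gave 30 genes at least 2-fold lower. The single 2-fold lower gene, Rps27, dropped out, leaving 0, with a minimum of 100 FPKM or, in settings added after seeing the data, with members of at least 100 FPKM, without genes of shared sequence (36 of 36 below equal expression) or without Rps27. Of all genes, 9.41% were at least 2-fold higher with a pseudocount of 0.1; 6.00% were lower and 1.78% higher with a pseudocount of 5; 5.41% were lower with the minimum of 100 FPKM; 9.71% were higher with the same upper quartile; and 21.8% were lower and 2.42% higher with the centring. The median of all genes turned to 0.0498 with the minimum of 100 FPKM and 0.13 with the same upper quartile. With the latter scaling the mTOR list turned to 0.0681 and the mitochondrial ribosome to 0.16. Among short transcripts the Mdm2 and p53 list read 0.87, which is the value of Cdkn1a alone. The gap to the mitochondrial ribosome kept its sign in each setting. No paired analysis was possible because each genotype has 1 library. Unknown depth limits weak genes most.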

Other observations

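Tpt1, a TOP mRNA that is usually abundant, was listed at 5.04 FPKM in the Cre library and 5.79 FPKM in the control library, a low level like those of Rpl34 and Rpl30. In the proteasome list the lowest ratios belonged to the immune and thymic subunits Psmb11, Psmb8 and Psmb9, at log2 ratios of -3.27, -2.80 and -1.86. Psmb8 had 12.1 FPKM in the Cre library and 90.5 FPKM in the control library. These genes were chosen after their values were seen.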
